A study of Homo sapiens with 8 samples.

Results

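The genes described here encode the nuclear subunits of the respiratory chain and of ATP synthase that hold no iron-sulfur cluster. They were chosen by symbol, as entries of the count table that name subunits of complexes I to V, leaving out the cluster-bearing subunits. The rule used no measured value, although earlier results of these data were known when the members were chosen. Of 15852 genes listed, 79 are members: 34 of complex I, 3 of complex II, 9 of complex III, 14 of complex IV and 19 of complex V. The cells were KYSE150, a line long in culture that came from a squamous carcinoma of the esophagus. Polyadenylated RNA was read in 4 libraries of cells labelled ShBOLA3-L (KD1 to KD4), a knockdown of the BOLA3-L isoform of BOLA3, and 4 libraries of cells labelled Control (NC1 to NC4). Both groups are the same line with no further treatment according to the labels. The study asks what follows from loss of an isoform of BOLA3, a mitochondrial protein that helps hand iron-sulfur clusters to their recipients. Nothing in the labels says whether the libraries of a group came from separate cultures, so the spread between them, and every p-value, may be technical.

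Complexes I to IV pass electrons from NADH and succinate to oxygen, and complexes I, III and IV pump protons across the inner mitochondrial membrane as they do so. ATP synthase, complex V, uses the returning protons to make ATP. Iron-sulfur clusters in complexes I, II and III carry part of the electrons. The subunits described here instead bind quinone, flavin or haem, form the proton-conducting or rotating parts, or hold the complexes together.

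Levels are given as CPM, counts scaled to a common library size after TMM normalization, and levels of different genes are compared as the deposited FPKM, which divides by gene length. A gene rose or fell where edgeR's quasi-likelihood test, run over 11841 genes, gave a Benjamini-Hochberg adjusted p under 0.05. Libraries held between 31178036 and 35147860 counts, and a called member between 1142 and 9255 counts per library. CPM is a relative scale, and a smaller amount of RNA per cell cannot be told apart from fewer cells of a kind. BOLA3 itself was counted at 6.06, 6.64, 6.33 and 7.29 CPM in KD1 to KD4, against 21.6, 19.1, 20.5 and 21.8 CPM in NC1 to NC4 (log2 change -1.66, SE 0.0820, adjusted p 6.9e-11), without overlap. A two-sided exact permutation test returned 0.0286, the lowest p among 70 possible assignments. Counts are per gene, so the isoforms of BOLA3 are not separated. KD1 stood apart from the other knockdown libraries on the second principal component (20.1, against -10.1 to -4.81 in KD2 to KD4), so results are given with and without it. Of 6 squamous epithelial markers 5 fell and EPCAM rose, with KRT5 at 1936 CPM in knockdown libraries and 3132 CPM in controls. Markers of other cell types were near the detection floor: 5 of 5 leukocyte, 5 of 6 fibroblast, 2 of 3 endothelial and 3 of 4 muscle markers stayed under 1 CPM in every library. The summed fibroblast list, nearly all COL1A1, ranged from 4.25 to 7.0 CPM in knockdown libraries and from 9.85 to 14.8 CPM in controls. The endothelial list, mostly CDH5, ranged from 1.71 to 2.29 CPM in knockdown libraries and from 0.819 to 1.64 CPM in controls. The part of these markers in the results was not tested. The leukocyte sums were 0.0290 to 0.127 CPM in knockdown libraries, where PTPRC and LYZ were at 0, and 0.0969 to 0.334 CPM in controls, and the muscle sums were 1.33 to 2.59 CPM in knockdown libraries and 1.19 to 1.77 CPM in controls.

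After knockdown 16 of 76 tested members rose and 2 fell. Among all genes tested 30.7% changed, 15% upward and 15.6% downward, so the members' 21.1% was somewhat above the share of rises and their 2.63% well below the share of falls. Rises were small, from 0.11 to 0.24 on the log2 scale, which is 108% to 118% of the control level. The median log2 change was 0.05 over the members and 0.001 over all genes tested, and 68.4% of members and 50.3% of all genes had a positive value. NDUFAB1 and NDUFB5 of complex I, SDHA and SDHC of complex II, CYC1 of complex III and COX5B of complex IV were among the 9 rises that held without any single library, and NDUFA12 of complex I and UQCRC2 of complex III were the 2 falls, which held as well. In 17 members (22.4%) every knockdown library lay above every control and in 3 (3.95%) below, against 14.6% and 15.6% of all genes tested. Of the 18 called members 11 kept their call whichever single library was left out. Without KD1 28 members rose (36.8%) and 4 fell (5.26%), when 21.2% of all genes rose and 21.5% fell. Without KD2 or without NC2 9 members rose (11.8%), when 12.2% and 11.9% of all genes did. Without KD3 or without NC3 10 members rose (13.2%), when 12.6% and 11.8% of all genes did. In these 4 fits the members' share of rises was near that of all genes, and the share of falls was 2.63% as before.

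**Figure D1:**
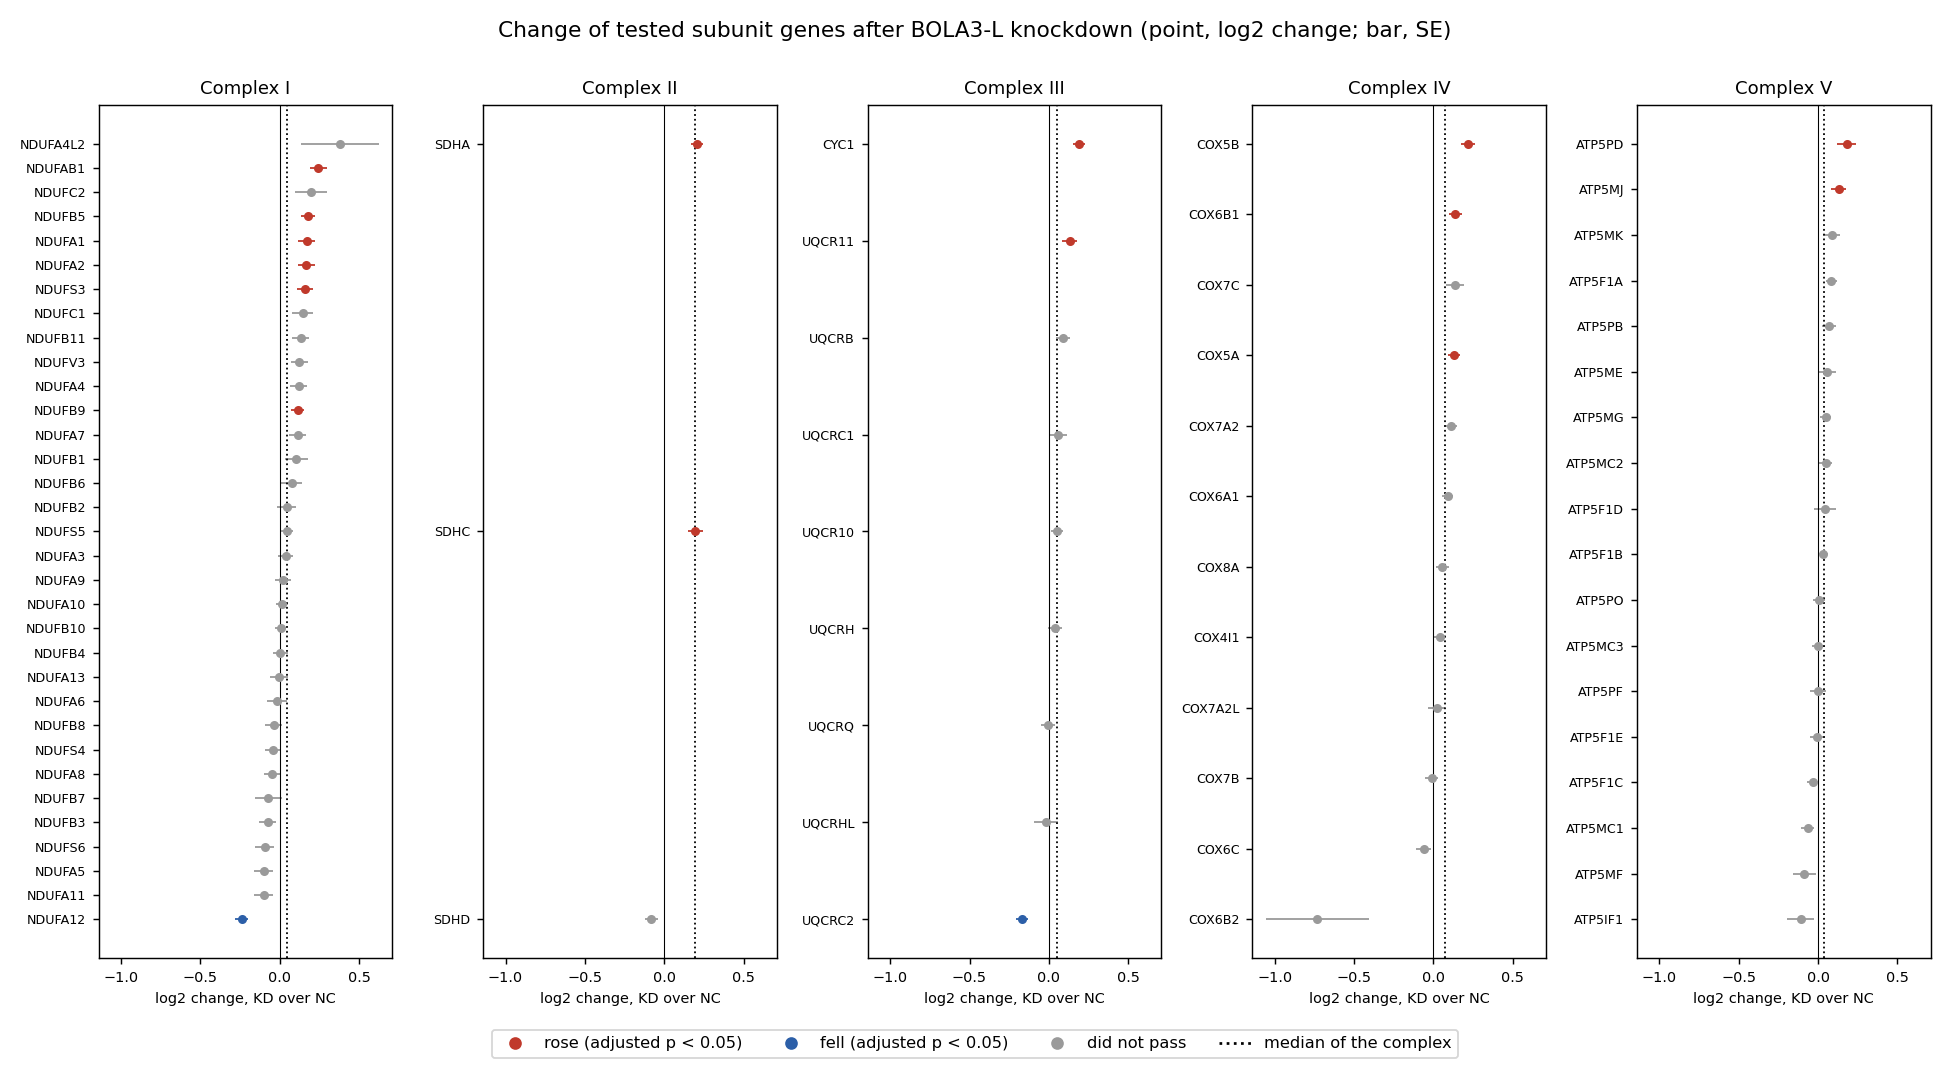
Log2 change (KD over NC) of 75 of the 76 tested members, 1 panel per complex, with bars of 1 SE; red points rose, blue points fell and grey points did not pass the test, and the dotted line is the median of the complex. Most points lie within 0.25 of 0, with NDUFA12 and UQCRC2 at the low end of complexes I and III; the wide bars are NDUFA4L2 and COX6B2, which are hardly expressed.

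Promoter sequence is shown for some of the members that rose or fell, since many respiratory genes are known to be driven by NRF1, by the ETS factor GABP and by YY1. Windows from 250 bases before to 50 bases after the start were available for 63 members (RefSeq, GRCh38.p14). They were searched on both strands for CCGGAAG, a core bound by ETS factors, for the NRF1 palindrome (GCGCA followed by its reverse complement) and for AAGATGGCG, a YY1 motif; the end of the ETS core can be the start of the YY1 motif, and each was counted by itself. The ETS core was found in 18 of 63 member windows (28.6%), against 10.6% of 27305 windows of all RefSeq genes that have a window. These include genes not tested or not expressed here, and no share among tested genes was taken. The NRF1 palindrome was found in 4 (6.35%, against 1.37%) and the YY1 motif in 6 (9.52%, against 1.82%). By complex the ETS core was found in 4 of 29 windows of complex I, 1 of 2 of complex II, 3 of 6 of complex III, 5 of 12 of complex IV and 5 of 14 of complex V. It was in 6 of 11 windows of members that rose, 12 of 49 of members that did not pass and neither of the 2 that fell. These matches describe the letters of the windows and do not show binding. To show what these counts refer to, 4 genes that rose and carry the ETS core are given with the 2 that fell, 5′ to 3′ from 130 bases before the start to 20 after it. The windows of the 2 that fell hold no exact match of any of the motifs. Only exact matches were counted. The NDUFA12 and UQCR11 windows hold near matches of the NRF1 palindrome, and the UQCRC2 window holds a near match of the YY1 motif on the other strand. NDUFA2, NDUFAB1, SDHA, COX5A and ATP5MJ rose, have windows without the core and are not shown. Among the rises with the core, NDUFA1, NDUFS3, UQCR11 and ATP5PD lost their call without some single libraries, and COX5B and COX6B1 kept it. Among those without the core, NDUFA2 and ATP5MJ lost it and NDUFAB1, SDHA and COX5A kept it. Whether the core goes with the direction of change was not tested. Capitals mark the motif, which reads CTTCCGG where it lies on the other strand:
COX5B (chr2:97645932-97646081, plus strand): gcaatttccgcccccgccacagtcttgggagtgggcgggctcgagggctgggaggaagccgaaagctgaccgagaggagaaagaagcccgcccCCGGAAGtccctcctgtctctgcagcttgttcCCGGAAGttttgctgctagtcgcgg
COX6B1 (chr19:35648193-35648342, plus strand): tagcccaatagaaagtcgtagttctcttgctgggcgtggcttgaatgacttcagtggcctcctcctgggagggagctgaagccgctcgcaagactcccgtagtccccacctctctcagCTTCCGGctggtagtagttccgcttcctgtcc
NDUFS3 (chr11:47578944-47579093, plus strand): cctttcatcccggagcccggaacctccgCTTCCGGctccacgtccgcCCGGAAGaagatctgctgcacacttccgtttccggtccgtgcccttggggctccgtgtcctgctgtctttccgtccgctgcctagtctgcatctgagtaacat
UQCR11 (chr19:1605443-1605592, minus strand): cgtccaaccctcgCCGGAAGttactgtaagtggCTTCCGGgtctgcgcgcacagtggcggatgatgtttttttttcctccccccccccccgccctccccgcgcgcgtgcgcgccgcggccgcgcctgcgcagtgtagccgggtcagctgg
NDUFA12 (chr12:95003678-95003827, minus strand): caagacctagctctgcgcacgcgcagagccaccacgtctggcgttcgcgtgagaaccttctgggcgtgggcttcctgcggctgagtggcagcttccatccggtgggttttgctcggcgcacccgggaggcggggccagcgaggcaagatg
UQCRC2 (chr16:21953231-21953380, plus strand): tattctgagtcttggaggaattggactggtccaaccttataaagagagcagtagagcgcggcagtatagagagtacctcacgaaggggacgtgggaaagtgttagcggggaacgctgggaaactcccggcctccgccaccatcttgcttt
COX5B carries the core 37 and 5 bases before the start, COX6B1 12 bases before it, NDUFS3 102 and 83 bases before it and UQCR11 117 and 97 bases before it.

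In complex I, which takes electrons from NADH, 7 of 34 members rose and NDUFA12 fell. The peripheral arm, which reaches into the matrix and holds the quinone site at its base, had 3 rises and 1 fall among 11 members, with a median log2 change of 0.02. The membrane arm, which conducts protons, had 3 rises among 20 members, a median of 0.04 and 0 falls in edgeR (also 0 by unadjusted p under 0.05, and DESeq2 gave 0). With offsets corrected for GC content NDUFA11 of this arm fell (-0.11, adjusted p 0.021). NDUFAB1, the acyl carrier protein, was the remaining rise.

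NDUFS3 (identifier 4722, chromosome 11, 47579074 to 47584562 in GRCh38), a core subunit of the peripheral arm, stood at 94.0, 95.3, 95.8 and 95.8 CPM in KD1 to KD4, against 79.0, 79.0, 93.5 and 89.2 CPM in NC1 to NC4. The groups did not overlap, but NC3 reached close to the knockdown libraries (log2 change 0.16, SE 0.0518, adjusted p 0.025), and the call was lost without KD2, KD3, NC1 or NC2 (adjusted p 0.00347 to 0.108 over the 8 omissions). NDUFA2, an accessory subunit of the same arm, was counted at 39.4, 44.4, 42.5 and 40.5 CPM in KD1 to KD4, against 37.1, 36.1, 36.9 and 38.6 CPM in NC1 to NC4 (log2 change 0.17, SE 0.0531, adjusted p 0.0226). Its lowest knockdown library was KD1, still above every control, and the call was lost without KD2, KD3, NC1, NC2 or NC3 (adjusted p 9.8e-04 to 0.0926).

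NDUFA12 (identifier 55967, chromosome 12, 94971333 to 95003697), an accessory subunit of the peripheral arm that takes the place of its paralog, the assembly factor NDUFAF2, late in assembly, stood at 98.6, 100.3, 94.0 and 93.1 CPM in KD1 to KD4, against 111, 113, 114 and 118 CPM in NC1 to NC4. Every knockdown library was below every control (log2 change -0.24, SE 0.0407, adjusted p 2.2e-04), at 84.8% of the control mean, and the call held without any single library (adjusted p 7.5e-08 to 0.00194). NDUFA5, of the same arm, did not pass at -0.10 on the log2 scale (adjusted p 0.188) and fell without KD1 (-0.15, adjusted p 0.00563). It also fell with GC-corrected offsets (-0.10, adjusted p 0.0447).

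NDUFAB1 (identifier 4706, chromosome 16, 23581014 to 23596316) is the mitochondrial acyl carrier protein, which sits in complex I and also carries the acyl chain from which lipoic acid is made. It was counted at 63.4, 64.5, 57.2 and 63.1 CPM in KD1 to KD4, against 50.8, 49.3, 53.1 and 56.5 CPM in NC1 to NC4, with KD3 the lowest of the knockdown libraries and NC4 the highest control. It had the largest rise among called members (log2 change 0.24, SE 0.0536, adjusted p 0.00205).

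Among membrane arm subunits NDUFB5, an accessory subunit of the distal arm, was counted at 103, 101, 94.6 and 92.8 CPM in KD1 to KD4, against 90.3, 83.9, 85.3 and 86.9 CPM in NC1 to NC4 (log2 change 0.18, SE 0.0452, adjusted p 0.00568). All knockdown libraries lay above the controls, and no single library decided the call. NDUFA1, a small subunit encoded on the X chromosome, stood at 79.9, 84.7, 77.5 and 76.5 CPM in KD1 to KD4, against 73.1, 63.1, 71.1 and 76.0 CPM in NC1 to NC4 (log2 change 0.17, SE 0.0545, adjusted p 0.0246). KD4 and NC4 were almost level, and the call was lost without KD2, NC2 or NC3 (adjusted p 0.00529 to 0.104). NDUFB9, of the distal arm, stood at 147, 164, 156 and 155 CPM in KD1 to KD4, against 145, 139, 143 and 148 CPM in NC1 to NC4 (log2 change 0.11, SE 0.0404, adjusted p 0.041). KD1 lay below NC4, and the call was lost without KD2, KD3, KD4, NC1, NC2 or NC3 and with the replicate number as a block (adjusted p 0.0663). Per length NDUFS5, which faces the intermembrane space, had the highest level of complex I, 299.7 FPKM in knockdown libraries and 287 FPKM in controls. It was counted at 140.2, 151, 145 and 149 CPM in KD1 to KD4, against 144, 141, 146 and 136 CPM in NC1 to NC4, overlapping groups that did not pass (log2 change 0.04, SE 0.0393, adjusted p 0.436).

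NDUFA4, named for complex I and now placed in complex IV, had a log2 change of 0.12 (SE 0.0520, adjusted p 0.0943) and passed without NC4. Its hypoxia-induced paralog NDUFA4L2 stood at 1.42 FPKM in knockdown libraries and 1.09 FPKM in controls and did not pass (log2 change 0.38, SE 0.245). The other 24 members of complex I that did not pass had log2 changes between -0.10 and 0.20.

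Complex II feeds electrons from succinate, and 2 of its 3 members rose. SDHA (identifier 6389, chromosome 5, 218320 to 268746), the flavoprotein that oxidises succinate, was counted at 169.7, 192, 187 and 186 CPM in KD1 to KD4, against 159, 157, 161 and 161 CPM in NC1 to NC4 (log2 change 0.21, SE 0.0406, adjusted p 8.3e-04). All knockdown libraries were above the controls and KD1 was the lowest of them; 11.8% of the SDHA transcript is shared with other transcripts, so part of its counts may be uncertain. SDHC (identifier 6391, chromosome 1, 161314381 to 161363206), which with SDHD forms the haem-bearing membrane anchor, was counted at 100.2, 91.3, 88.9 and 89.5 CPM in KD1 to KD4, against 81.4, 80.5, 78.0 and 83.1 CPM in NC1 to NC4 (log2 change 0.20, SE 0.0460, adjusted p 0.00331). Here KD1 was the highest library, and the groups did not overlap. Both calls held without any single library.

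SDHD, which had the highest control level of complex II per length (86.5 FPKM in knockdown libraries and 90.2 FPKM in controls), stood at 132, 131, 122 and 119.5 CPM in KD1 to KD4, against 134, 128, 133 and 139.6 CPM in NC1 to NC4 (log2 change -0.08, SE 0.0434, adjusted p 0.17). The groups overlapped, and SDHD fell when KD1 was left out (-0.10, adjusted p 0.0145). As 20% of the SDHD transcript is shared with other genes, part of its counts may be uncertain too. As a log2 ratio of CPM, SDHC over SDHD was -0.395, -0.524, -0.460 and -0.417 in KD1 to KD4 and -0.721, -0.664, -0.769 and -0.748 in NC1 to NC4. That difference of 0.28 had p = 0.0286 in an exact two-sided permutation test, the lowest p possible with 4 against 4 libraries. It did not pass after adjustment over 4 partner pairs chosen after their values were seen (0.114). A single pair at the lowest p cannot pass that adjustment, so the adjusted value does not decide whether the ratio changed. SDHB, the cluster-bearing subunit of complex II, had a log2 change of 0.03 (adjusted p 0.61).

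Complex III moves electrons from ubiquinol to cytochrome c. Of its 9 members CYC1 and UQCR11 rose and UQCRC2 fell. CYC1 (identifier 1537), the haem protein cytochrome c1 that docks cytochrome c, was counted at 198, 212, 208 and 219 CPM in KD1 to KD4, against 182, 186, 183 and 183 CPM in NC1 to NC4. The groups did not overlap (log2 change 0.19, SE 0.0377, adjusted p 9.4e-04), and no single library decided the call (adjusted p 1.4e-08 to 0.00552). UQCR11, a small subunit, stood at 79.9, 94.0, 89.5 and 90.7 CPM in KD1 to KD4, against 78.7, 81.6, 81.8 and 81.5 CPM in NC1 to NC4 (log2 change 0.13, SE 0.0486, adjusted p 0.0486). KD1 lay within the controls, and the call was kept when KD1 was left out and lost without any other single library (adjusted p 6.0e-05 to 0.171). It was also lost with RLE size factors, and 14% of the UQCR11 transcript is shared with other genes.

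UQCRC2 (identifier 7385, chromosome 16, 21953361 to 21983660), one of the large matrix-facing core proteins, was counted at 260.5, 248, 232 and 242 CPM in KD1 to KD4, against 276, 272, 277 and 281 CPM in NC1 to NC4. Every knockdown library was below every control (log2 change -0.17, SE 0.0379, adjusted p 0.00204). Its partner UQCRC1 had a log2 change of 0.06 (adjusted p 0.489), with KD1 at 171 CPM against 205 to 218 CPM in KD2 to KD4, and rose without KD1 (0.13, adjusted p 5.9e-04). The log2 ratio of UQCRC1 over UQCRC2 was -0.605, -0.185, -0.177 and -0.222 in KD1 to KD4 and -0.588, -0.509, -0.507 and -0.484 in NC1 to NC4, a difference of 0.22 that did not pass (exact two-sided permutation p = 0.143, 0.191 over the 4 pairs). UQCRH, the hinge protein near cytochrome c1, had the highest level of the complex per length, 345 FPKM in knockdown libraries and 331 FPKM in controls. It stood at 218, 254, 232 and 235 CPM in KD1 to KD4, against 236, 216, 233 and 229 CPM in NC1 to NC4 (log2 change 0.04, SE 0.0444, adjusted p 0.537), with overlapping groups, and passed without KD1 (0.08, adjusted p 0.043). Its retrocopy UQCRHL, listed at 20.8 FPKM in knockdown libraries and 20.8 FPKM in controls, shares 18.2% of the UQCRH transcript, so part of the reads of either gene may be uncertain.

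Complex IV reduces oxygen, and its nuclear subunits surround a catalytic core encoded by mitochondrial DNA. Of 12 tested members 3 rose, all among the 10 subunits found in every tissue, whose median log2 change was 0.10. None fell in edgeR, where 1 had an unadjusted p under 0.05, and DESeq2 gave 0. COX5B (identifier 1329, chromosome 2, 97646062 to 97648383), a zinc-binding subunit on the matrix side with the paired ETS core shown above, was counted at 87.2, 87.3, 85.3 and 90.5 CPM in KD1 to KD4, against 75.1, 74.6, 72.1 and 79.1 CPM in NC1 to NC4. The lowest knockdown library lay above the highest control (log2 change 0.22, SE 0.0430, adjusted p 7.9e-04; adjusted p 3.7e-06 to 0.00619 with single libraries left out).

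COX6B1, which joins the monomers of the enzyme on the intermembrane side and had the highest level of complex IV per length (458 FPKM in knockdown libraries and 411 FPKM in controls), stood at 231, 223, 215 and 219.7 CPM in KD1 to KD4, against 203, 192, 203 and 209 CPM in NC1 to NC4 (log2 change 0.14, SE 0.0382, adjusted p 0.00989). COX5A, a matrix-side subunit, stood at 136, 137, 129.7 and 134 CPM in KD1 to KD4, against 124, 122, 121 and 124 CPM in NC1 to NC4 (log2 change 0.13, SE 0.0371, adjusted p 0.0119). In both the groups were apart and the call held without any single library. COX6A1 (0.09, adjusted p 0.0556) and COX7A2 (0.11, adjusted p 0.0702) did not pass, although their groups did not overlap, and both rose when KD1 was left out, as did COX4I1 (all 8 libraries 0.04, without KD1 0.09, adjusted p 0.00578) and COX8A (0.06, without KD1 0.10, adjusted p 0.00864). COX7C (0.13, adjusted p 0.0707) passed without KD4 or without NC4.

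Tissue isoforms of complex IV were close to silent. COX4I2, the lung and hypoxia isoform of subunit 4, had 0 counts in every knockdown library and 4, 0, 0 and 0 counts in NC1 to NC4, where 3 counts correspond to 0.0854 to 0.0962 CPM. COX8C, a testis isoform, had at most 1 count in any library, and COX6B2, another testis isoform, stood at 0.632 ± 0.296 CPM in knockdown libraries and 1.04 ± 0.340 CPM in controls (SD, n = 4 each) and did not pass (log2 change -0.73, SE 0.326, adjusted p 0.0987), although it fell when KD4 was left out (adjusted p 0.0226). COX7A2L, a paralog that joins complexes III and IV into supercomplexes, had a log2 change of 0.02 (SE 0.0538).

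In complex V 2 of 18 tested members rose. None fell in edgeR, where 0 had an unadjusted p under 0.05, and DESeq2 gave 0. The F1 part, where ATP is made, gave 0 calls among its 5 subunits in edgeR, although ATP5F1A was the 1 subunit with an unadjusted p under 0.05 and the 1 called by DESeq2. ATP5F1B, the catalytic beta subunit, had the highest level of all members per length, 625 FPKM in knockdown libraries and 604 FPKM in controls. It stood at 1099, 1096, 1089.5 and 1083 CPM in KD1 to KD4, against 1039, 1035, 1099.8 and 1107 CPM in NC1 to NC4 (log2 change 0.03, SE 0.0317, adjusted p 0.528), and NC3 and NC4 lay above every knockdown library. ATP5F1A, the alpha subunit, stood at 542, 527, 511 and 513 CPM in KD1 to KD4, against 494, 481, 493 and 506 CPM in NC1 to NC4 (log2 change 0.08, SE 0.0327, adjusted p 0.0586), with every knockdown library above every control, and rose without KD1 (0.07, adjusted p 0.0245).

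ATP5PD, subunit d of the peripheral stalk, was counted at 104, 122, 113 and 100.1 CPM in KD1 to KD4, against 105, 87.5, 98.6 and 96.2 CPM in NC1 to NC4 (log2 change 0.18, SE 0.0609, adjusted p 0.0325). KD1 and KD4 lay among the controls, and the call was lost without KD1, KD2, KD3, NC2, NC3 or NC4 (adjusted p 0.0112 to 0.144) and with GC-corrected offsets. ATP5MJ, a small membrane subunit, stood at 58.0, 57.9, 59.6 and 60.1 CPM in KD1 to KD4, against 55.5, 49.7, 54.3 and 55.9 CPM in NC1 to NC4 (log2 change 0.13, SE 0.0483, adjusted p 0.0498). Its groups did not overlap, but the call was kept when KD1 was left out and lost without any other single library (adjusted p 0.00846 to 0.172) and with the replicate block (0.0608).

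The proton-driven c-ring is encoded by ATP5MC1, ATP5MC2 and ATP5MC3, genes for the same mature peptide. Their log2 changes were -0.07, 0.05 and 0.00180, and none passed in edgeR, with 0 by unadjusted p under 0.05 and 0 from DESeq2. Per length they stood at 159, 102 and 64.4 FPKM in knockdown libraries and 164, 96.8 and 63.4 FPKM in controls. ATP5IF1, which blocks ATP hydrolysis by the enzyme, had a log2 change of -0.11 (SE 0.0868, adjusted p 0.368), with its lowest value in KD1. ATP5MGL, a paralog of ATP5MG, had at most 1 count in a library and was not tested.

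**Figure D2:**
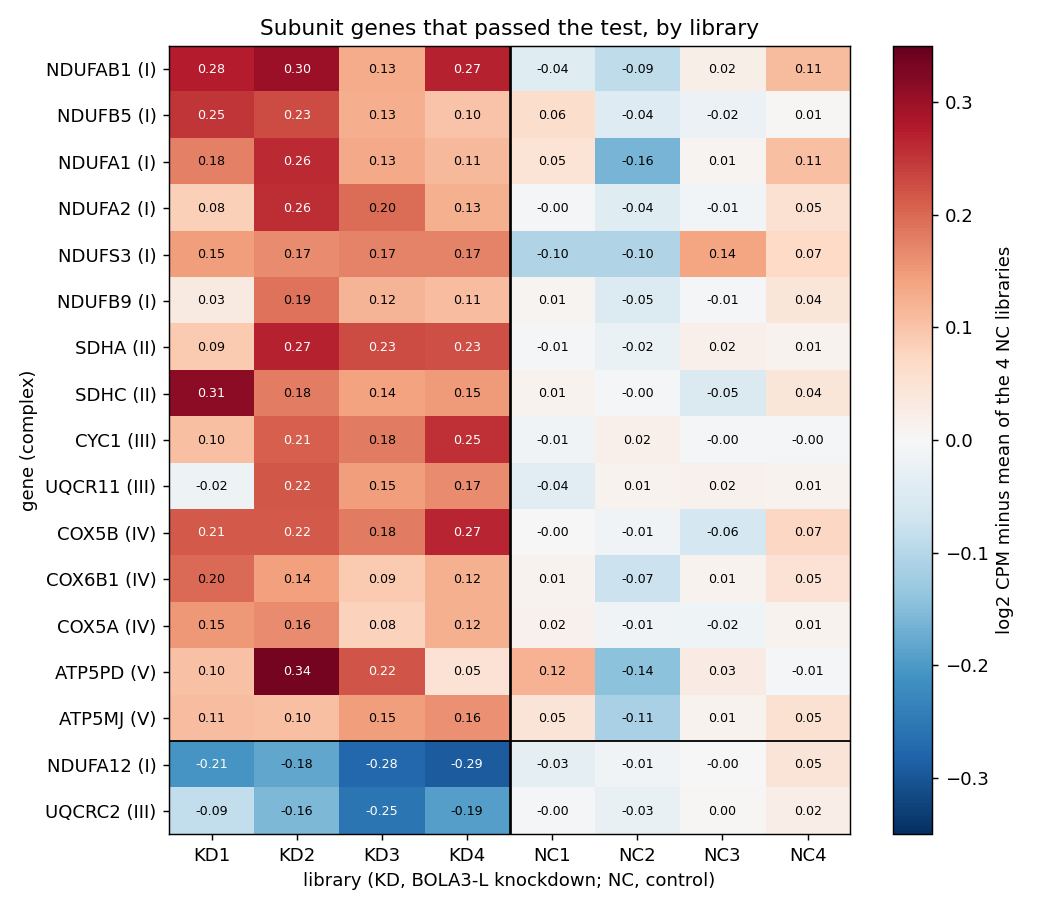
Log2 CPM minus the control mean for 17 of the 18 members that passed the test (rows, complex in brackets) in each library (columns, knockdown left of control); the horizontal line separates 15 rises from the 2 falls. Knockdown columns are red for the rises and blue for the falls, except for UQCR11 and NDUFB9, which are near 0 in KD1, and ATP5PD, which is near 0 in KD4. In the ATP5PD row the control NC1 lies above KD1 and KD4.

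Set side by side, the complexes differed in how many members rose: 7 of 34 (20.6%) in complex I, 2 of 3 (66.7%) in complex II, 2 of 9 (22.2%) in complex III, 3 of 12 (25%) in complex IV and 2 of 18 (11.1%) in complex V, with 15% of all genes tested. Median log2 changes were 0.04, 0.20, 0.05, 0.07 and 0.04 for complexes I to V. No test compares the complexes, and with 3 members in complex II its median is the value of SDHC. Without KD1 the counts of rises were 11, 2, 4, 7 and 4, which is 32.4%, 66.7%, 44.4%, 58.3% and 22.2%, beside 21.2% of all genes. The count of complex I was 3 (8.82%) without KD2 or without NC2, below the 12.2% and 11.9% of all genes in those fits. It was 4 (11.8%) without KD3 or without NC3, beside 12.6% and 11.8% of all genes. In complex III it was 1 without any single library other than KD1. In complex V it was at most 1 without any single library other than KD1, and in complex IV 3 or 4.

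Library by library, log2 CPM minus the control mean was taken as a median over the members of a complex. In complex II it was 0.09, 0.18, 0.14 and 0.15 in KD1 to KD4 and 0.01, -0.02, -0.01 and 0.04 in NC1 to NC4, and the groups did not overlap. They did not overlap either in complex IV (0.05 to 0.12 in knockdown libraries, -0.02 to 0.02 in controls) or in complex I (0.03 to 0.12 in knockdown libraries, -0.03 to 0.02 in controls). In complex III (-0.02 to 0.15 in knockdown libraries, -0.0036 to 0.01 in controls) and complex V (0.0008 to 0.05 in knockdown libraries, -0.04 to 0.04 in controls) they overlapped. Over all genes these medians lay between 0 and 0.0031 in all 8 libraries. Scaling between libraries keeps them near 0, so they do not show how far a median over few genes varies.

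**Figure D3:**
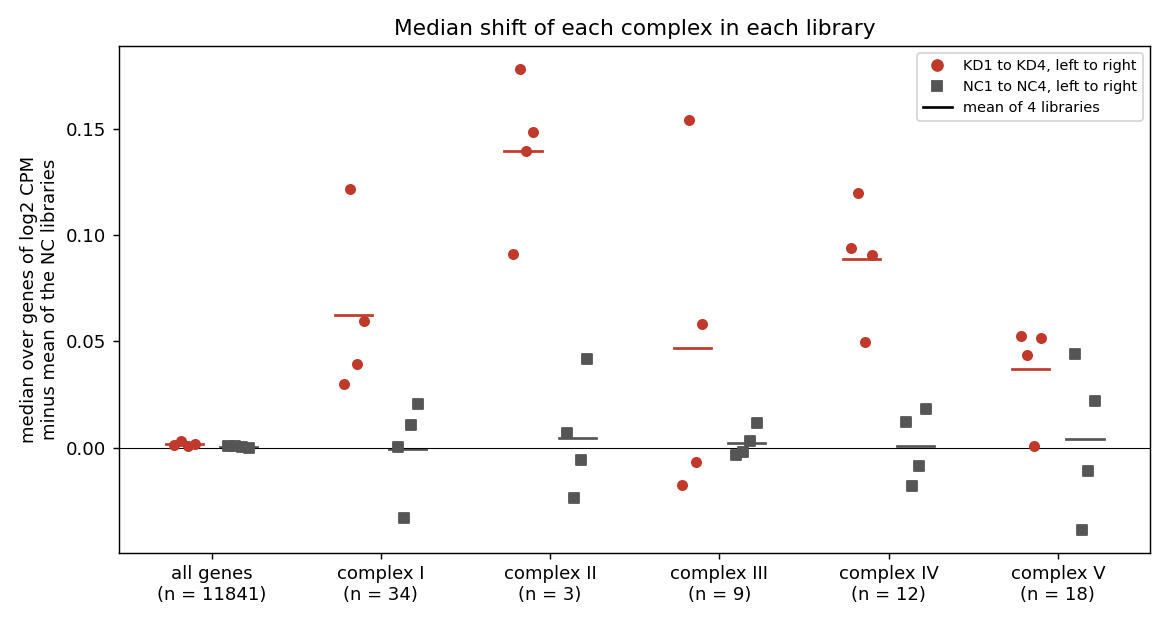
Median over the tested genes of all genes and of each complex of log2 CPM minus the control mean, 1 point per library (circles, KD1 to KD4; squares, NC1 to NC4) with the mean of 4 as a line. Knockdown and control points are apart in complexes I, II and IV and mixed in complexes III and V.

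Summed over its members, complex II amounted to 402, 415, 398 and 395 CPM in KD1 to KD4 and 374, 365, 372 and 383 CPM in NC1 to NC4. Complex IV amounted to 1652 ± 28.9 CPM in knockdown libraries and 1567 ± 29.2 CPM in controls (SD, n = 4 each), also without overlap. The sums of complexes I, III and V were 1.03, 1.02 and 1.02 times the control sum, and their groups overlapped. Per length, the median tested member stood at 56.96 FPKM in knockdown libraries and 52.3 FPKM in controls in complex I, the lowest of the complexes, at 71.2 FPKM in knockdown libraries and 61.3 FPKM in controls in complex II, and at 117 and 102 FPKM in complex III. In complex IV it stood at 121.5 FPKM in knockdown libraries and 106 FPKM in controls, and in complex V at 103.5 and 97.3 FPKM.

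**Figure D4:**
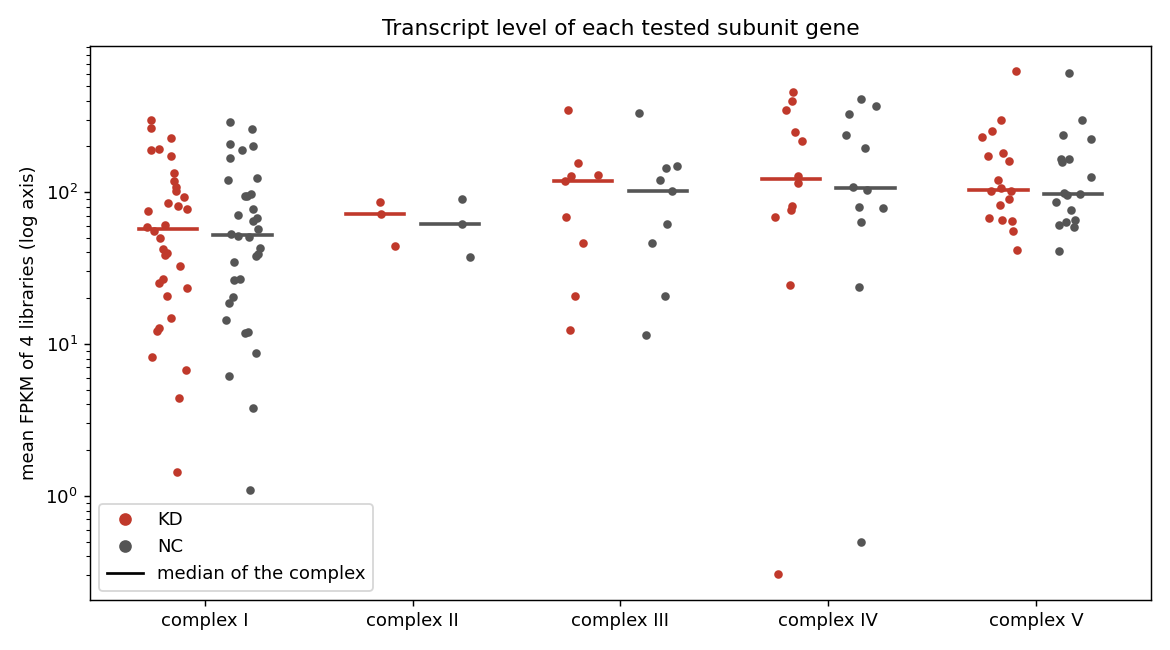
Mean FPKM of each tested member on a log axis, knockdown left of control, with the median of each complex as a line. Levels within complexes I, III, IV and V spread widely, those of complex II stay between 43.9 and 86.5 FPKM in knockdown libraries and between 37.5 and 90.2 FPKM in controls, and ATP5F1B is the highest point at 625 FPKM in knockdown libraries and 604 FPKM in controls.

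KD1 differed from the other knockdown libraries in a way that followed base composition. Among the 76 tested members KD1 was the lowest knockdown library in 36 and the highest in 25. Its difference from the mean of KD2 to KD4 had a Pearson r of -0.586 and a Spearman rho of -0.547 with the GC content of the transcript over the 76 members, which share the 1 library; over 11804 genes r was -0.585. The same correlation was between -0.297 and 0.362 in the other 7 libraries, each against the rest of its group, leaving KD1 aside. NDUFB7, ATP5F1D, NDUFA13 and UQCRC1, with GC contents of 65.0%, 69.6%, 61.6% and 59.5%, were lowest in KD1 among all 8 libraries. Of the NDUFA13 transcript 40.5% is shared with other genes. Leaving KD1 out added 13 rises (median GC content 53.5%) and removed that of ATP5PD, while 15 rises (median 52.0%) were called either way, beside a median of 47.8% over all tested members. The rises added were NDUFA7, NDUFB11, NDUFC1, NDUFV3, UQCRC1, UQCRH, COX4I1, COX6A1, COX7A2, COX8A, ATP5F1A, ATP5F1D and ATP5ME. Of these NDUFA7 shares 68.2%, COX6A1 35%, COX8A 22.2% and UQCRH 18.2% of its transcript with other genes, so that their counts may be uncertain. Why KD1 differs was not tested. With offsets corrected for GC content in every library 26 members rose (34.2%) and 4 fell (5.26%), and of all genes 20.2% rose and 21.6% fell. The 2 settings differed in part over the rises added without KD1. UQCRC1, UQCRH, COX4I1, COX8A, ATP5F1D and ATP5ME did not pass with these offsets (adjusted p 0.192, 0.552, 0.46, 0.14, 0.919 and 0.316), and the others named did.

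**Figure D5:**
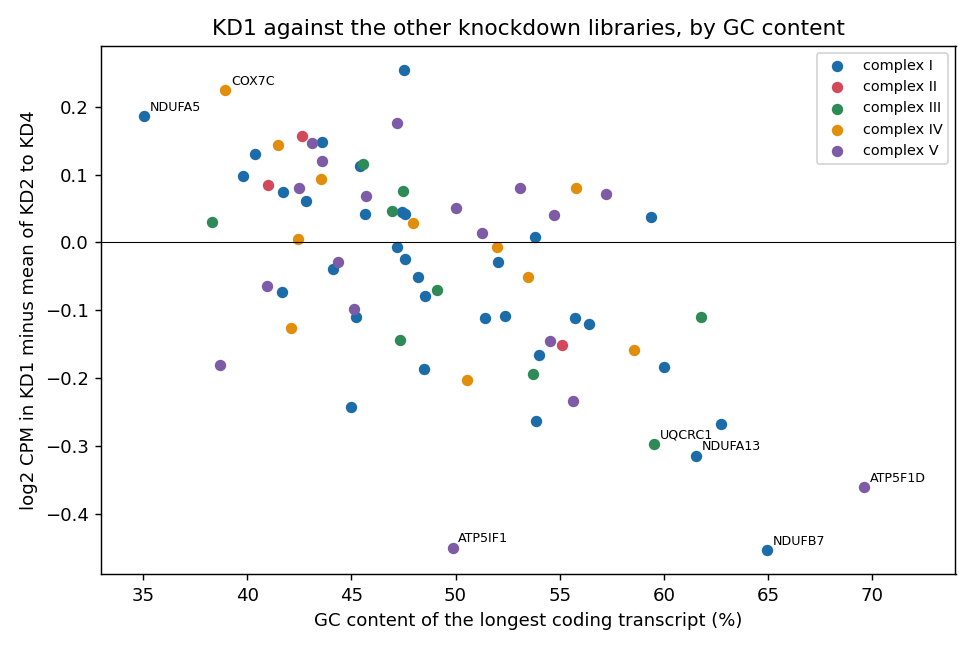
Log2 CPM in KD1 minus the mean of KD2 to KD4 against the GC content of the transcript, for 74 tested members coloured by complex; the barely expressed NDUFA4L2 and COX6B2 are not drawn. Most points at low GC content lie above 0 and most at high GC content below it, with NDUFB7 and ATP5F1D at the lower right and ATP5IF1 low at a middle GC content.

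Of the 7 cluster-bearing subunits that the members leave out, NDUFS1, the large subunit that carries electrons through the peripheral arm, rose (log2 change 0.21, SE 0.0367, adjusted p 2.5e-04). By edgeR 0 fell, with 0 by unadjusted p under 0.05 and 0 from DESeq2. Without KD1 NDUFS7 (0.18, adjusted p 0.00103), NDUFS8 (0.10, adjusted p 0.0338) and NDUFV1 (0.09, adjusted p 0.0194) rose as well, when 21.2% of all genes rose. Their GC contents were 64.9%, 63.3% and 59.4%. With GC-corrected offsets over all 8 libraries they did not pass (adjusted p 0.125, 0.914 and 0.627). Subunits encoded by mitochondrial DNA are not analysed here. Of 7 tested electron carriers and entry enzymes, ETFA, which passes electrons from fatty acid oxidation (0.19, adjusted p 0.00186), and the glycerophosphate dehydrogenase GPD2 (0.20, adjusted p 0.00228) rose. By edgeR 0 fell, with 0 by unadjusted p under 0.05 and 0 from DESeq2. CYCS, cytochrome c, had a log2 change of -0.06 (adjusted p 0.308) and fell without KD1 (-0.08, adjusted p 0.0141). It did not pass with GC-corrected offsets (adjusted p 0.164).

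Among 12 tested regulators of respiratory genes 3 fell and 0 rose in edgeR, with 1 rise by unadjusted p under 0.05 and 0 from DESeq2. Of all genes tested 15.6% fell and 15% rose, and with 12 regulators these counts cannot show a shift of the list. YY1 was counted at 175, 170.3, 173 and 169.8 CPM in KD1 to KD4, against 199, 194, 194 and 191 CPM in NC1 to NC4 (log2 change -0.18, SE 0.0345, adjusted p 7.6e-04). The coactivators PPARGC1B (log2 change -0.25, SE 0.0595, adjusted p 0.00385) and PPRC1 (log2 change -0.18, SE 0.0386, adjusted p 0.0019) were likewise below every control in all knockdown libraries. NRF1 (-0.06, SE 0.0594), the ETS factor subunit GABPA (0.11, SE 0.0529) and TFAM, which drives mitochondrial DNA transcription (0.00194, SE 0.0535), did not pass. Without KD1 2 regulators rose and 4 fell, when 21.2% of all genes rose and 21.5% fell. POLRMT, the mitochondrial RNA polymerase (0.15, adjusted p 9.9e-04), and ESRRA, a nuclear receptor (0.12, adjusted p 0.031), rose, and GABPB1, the partner of GABPA (-0.21, adjusted p 0.00357), fell with the 3 above. With GC-corrected offsets GABPA rose (0.12, adjusted p 0.0183) and NFE2L1 fell (-0.11, adjusted p 0.0103). POLRMT, ESRRA and GABPB1 did not pass with these offsets (adjusted p 0.2065, 0.1854 and 0.0516).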

How the data were processed

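Per the series text and labels, RNA of KYSE150 cells was extracted with TRIzol, libraries were made with the VAHTS Universal V6 kit and sequenced as paired ends, with fastp as the read filter. Per the submitters' processing notes the build was hg38; which aligner, counter and annotation were used is not known here. The authors deposited raw counts per gene and, in a second table, FPKM values; each of 110558 nonzero FPKM is the deposited count over 1 length per gene and the library total (tolerance 1e-06), so the FPKM are not independent.

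Counts were scaled by TMM, filtered with filterByExpr and tested by the quasi-likelihood F-test of edgeR (robust), adjusted by Benjamini-Hochberg over 11841 genes; SE is the absolute log2 change over the square root of F. Log2 CPM used a prior count of 2. Alternatives are RLE and upper quartile factors, no filter, 1 CPM in 4 libraries, the replicate block, DESeq2, limma on log2 FPKM (pseudocount 1 or 0.1, minimum 0.5 FPKM or none), GC-corrected offsets (lowess per library, span 0.3; GC content known for 99.7% of tested genes), 3 changes of membership and each library left out. Shared sequence is the share of 75-base windows, every 25 bases, of the longest coding transcript (GENCODE v29) that occurs in transcripts of other genes. Coordinates and a table of promoter windows are RefSeq on GRCh38.p14; where that table lists several windows of a gene, the outermost listed was taken, which need not be at the outermost end of the gene. The fits were tested on simulated data. Versions were edgeR 4.0.16, DESeq2 1.42.0 and limma 3.58.1 under R 4.3.3, and pandas 2.3.3 and matplotlib 3.10.9 under Python 3.11.15.

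The members, lists and tests were chosen with earlier results of these data known. Values in every library are given for the called members, for the 3 members with the smallest p and for the member with the highest FPKM of each complex; paralogs, untested members and those whose call turns on 1 library are named with less. The counts, medians and sums cover every tested member, but values of 1 called member of complex I, and of the partner pair it belongs to, are not reported here. The partner pairs and the motif search were chosen after values were seen.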

Additional observations from a re-analysis of the deposited data

Results flagged for a closer look

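In 2 of 78 groups of 4 libraries checked, 1 library stood far from the others of its group, where chance gives about 1 in 20. UQCR11 in controls was 78.7 CPM in NC1, below 81.5 to 81.8 CPM in NC2 to NC4. The log2 ratio of UQCRC1 over UQCRC2 in knockdown libraries was -0.605 in KD1, below -0.222 to -0.177 in KD2 to KD4.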

How the results depend on the processing

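The 16 rises among members became 26 with GC-corrected offsets, 31 with GC-corrected offsets and without KD1, and 9 to 28 with single libraries left out, when 20.2%, 20.3% and 11.8% to 21.2% of all genes rose. At 9 the members' 11.8% was no higher than the 12.2% (without KD2) or 11.9% (without NC2) of all genes. Under the other alternatives between 14 and 22 members rose. With RLE size factors it was 15 (19.7%), beside 14.9% of all genes, and with upper quartile factors 18 (23.7%), beside 16%. For the rest of these, the replicate block included, no share of all genes is given here. Their counts of rises and falls cannot be read alone. The 2 falls became 4 with GC-corrected offsets, 6 with those and without KD1, and 2 to 4 with single libraries left out. Of all genes 15.6% fell over all 8 libraries, 21.6% with GC-corrected offsets and 21.5% without KD1. No share of all genes is set beside the 6 falls. The median log2 change ranged with single libraries left out from 0.03 to 0.07 in complex I, 0.16 to 0.21 in complex II, 0.01 to 0.08 in complex III, 0.06 to 0.09 in complex IV and 0.02 to 0.04 in complex V. That of complex IV was 0.11 on log2(FPKM + 1) and 0.11 on log2(FPKM + 0.1), where COX6B2 did not reach the minimum of 0.5 FPKM, and 0.05 with DESeq2 and 0.05 with no filter, where the unexpressed isoforms enter. The 3 rises among other respiratory genes became 5 with GC-corrected offsets and without KD1 and 3 to 8 with single libraries left out, and their 3 falls became 5 and 3 to 5. Those genes were 7 cluster-bearing subunits, 7 tested carriers and entry enzymes and 12 tested regulators. Beside them 15% of all genes rose and 15.6% fell over all 8 libraries, and 21.2% and 21.5% without KD1. BOLA3 stayed between -1.71 and -1.62 with single libraries left out. No called member changed sign under any alternative. Same-numbered libraries did not deviate together (correlations -0.0444 to 0.0876, with KD3 alone correlating best with its own number), and with the replicate number as a block 14 members rose and 2 fell. Why these values moved was not tested. The smallest change of a member that passed over all 8 libraries was 0.11 (log2).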

Other observations

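Groups did not overlap in 5 members that did not pass the test. NDUFV3 (0.12, edgeR adjusted p 0.0792), COX6A1, COX7A2 and ATP5F1A were higher in 4 of 4 knockdown libraries than in any control, and ATP5MC1 (-0.07, edgeR adjusted p 0.239) was lower in 4 of 4. Log2 ratios of partner subunits include ATP5F1A over ATP5F1B, which averaged -1.06 ± 0.0310 in knockdown libraries and -1.12 ± 0.0367 in controls (SD, n = 4 each; exact two-sided permutation p = 0.0857, 0.171 over 4 pairs).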
